A study of Mus musculus with 35 samples.

Results

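Gm28437, Gm10925, Gm28661 and Gm29216 are 4 neighbouring unprocessed pseudogenes on mouse chromosome 1, from base 24613189 to base 24616197 on GRCm38, whose sequences match mitochondrial genes. They were chosen by this position in the deposited annotation, and with their raw counts by tissue and the way those counts moved with the mitochondrial share of each library in view. They make up 4 of the 55356 genes and Iso-seq loci that were counted, and all 4 had counts in each of the 29 RNA-seq libraries. Levels by tissue, the split of the reads among the 4 by tissue and the relation to the mitochondrial share are therefore given as a description without a test. Tests of the 4 are kept to the difference between the sexes, which did not choose them.

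The libraries were made from total RNA of adult C57BL/6J mice after removal of ribosomal RNA, and each keeps the strand of the RNA. Brain, cerebellum, heart and colon were taken from females and males, together with ovary and testis, which gives 10 groups. A group held 3 libraries, and male heart held 2. Long-read Iso-seq, run on 6 flow cells with the gonads apart and the somatic tissues of each sex pooled, entered through the deposited transcript models.

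Mitochondria carry their own small genome, which is transcribed as long RNAs and then cut into mRNAs, rRNAs and tRNAs. Its mRNAs encode core subunits of the respiratory chain and of ATP synthase, and they are abundant in heart muscle, which depends on oxidative metabolism. Pieces of mitochondrial DNA have been inserted into the nuclear chromosomes during evolution. An inserted piece that is young keeps nearly the same sequence as the mitochondrial genome, so a short read from one can fit the other. In bulk RNA, fewer cells of a type and less RNA per cell cannot be told apart.

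All 4 pseudogenes lie on the minus strand inside one stretch of 4663 bases (chr1:24611535-24616197) that holds 7 pseudogenes, and no other annotated gene overlaps it. Gm28437 (ENSMUSG00000101111, chr1:24613189-24613971, 783 bases) was identical over its whole length to mt-Co3, which encodes subunit 3 of cytochrome c oxidase. Gm10925 (ENSMUSG00000100862, chr1:24613974-24614651, 678 bases) was identical to mt-Atp6, which encodes the proton channel subunit of ATP synthase. Gm28661 (ENSMUSG00000102070, chr1:24614885-24615565, 681 bases) was identical to mt-Co2, which encodes the subunit of cytochrome c oxidase that receives electrons from cytochrome c. Gm29216 (ENSMUSG00000101249, chr1:24615706-24616197, 492 bases) matched the last part of mt-Co1, the catalytic subunit of the same enzyme, over 483 bases with 1 mismatch. The sequences come from GENCODE transcripts on GRCm38 and are read along the minus strand. The first 60 bases of the 3 identical copies are shown with the start codon in capitals, because the same letters stand in the mitochondrial gene.
Gm28437 and mt-Co3: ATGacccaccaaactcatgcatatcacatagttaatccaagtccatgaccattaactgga
Gm10925 and mt-Atp6: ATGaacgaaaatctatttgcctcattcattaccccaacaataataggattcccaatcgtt
Gm28661 and mt-Co2: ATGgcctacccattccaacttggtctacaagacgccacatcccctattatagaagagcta

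Gm29216 is the copy that can be told from its mitochondrial counterpart, at its 5′ end. The substitution A1066T, with the base of mt-Co1 first and positions counted from 1 at the start of mt-Co1, lies at position 13 of Gm29216 (chr1:24616185-24616185), and the 9 bases before the aligned part were left unaligned. Both stretches are shown with the substitution and the unaligned bases in capitals. The Gm29216 bases lie at chr1:24616138-24616197 and the mt-Co1 bases at positions 6381 to 6440 of the mitochondrial chromosome.
Gm29216: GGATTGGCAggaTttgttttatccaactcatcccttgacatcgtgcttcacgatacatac
mt-Co1: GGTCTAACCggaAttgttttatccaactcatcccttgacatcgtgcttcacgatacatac

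At the 3′ end, the annotated models of Gm10925, Gm28661 and Gm28437 stop short of the mitochondrial gene, by 3, 3 and 1 bases. The last bases of Gm10925 (chr1:24613974-24614003) and of mt-Atp6 are shown with the part past the pseudogene model in capitals, which is the stop codon of mt-Atp6.
Gm10925: ctagtaagcctatatctacatgataataca
mt-Atp6: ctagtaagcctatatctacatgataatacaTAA

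The spacing of the mitochondrial genes was kept on chromosome 1. For every aligned part of the 4 pseudogenes, a position on chromosome 1 and the matching position on the mitochondrial chromosome summed to 24622578, so that the 4 follow each other in the order and at the distances of positions 6390 to 9389 of the mitochondrial chromosome. The models of Gm10925 and Gm28437 lie 2 bases apart, where mt-Atp6 and mt-Co3 share 1 base. To see how far reads of either origin could be separated, windows of 50, 100 and 150 bases were taken along each pseudogene. All 734, 684 and 634 windows of Gm28437 occurred exactly in mt-Co3, and all 629, 579 and 529 windows of Gm10925 occurred in mt-Atp6. The same held for all 632, 582 and 532 windows of Gm28661 in mt-Co2. In Gm29216, 13 windows of each length, those that reach the substitution or the bases before it, had no exact match in another transcript. Within these lengths, sequence alone cannot tell a read of the first 3 from a read of the mitochondrial genes, and mapping of the reads was not analysed here. By the study's methods, reads that mapped to several places were dropped, and how reads identical to a mitochondrial gene came to be counted on chromosome 1 was not tested. In the counts and levels of those 3 that follow, RNA of the pseudogenes and RNA of the mitochondrial genes therefore cannot be told apart.

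**Figure D1:**
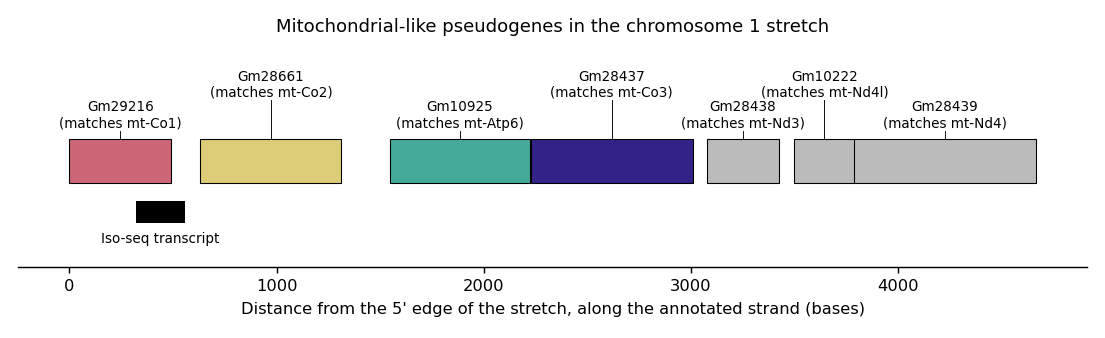
Position of the 7 mitochondrial-like pseudogenes in the stretch, in bases from its 5′ edge along the annotated strand. Colored boxes are the 4 pseudogenes described, grey boxes the 3 others, each with the mitochondrial gene it matches, and the black box is the 238-base Iso-seq transcript under which Gm29216 was counted.

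Gm29216 was counted as an Iso-seq locus, whereas the other 3 were counted under their ENSEMBL genes. This locus is a single transcript of 238 bases (chr1:24615640-24615877), the only Iso-seq transcript in the stretch, with 172 bases inside Gm29216 and 66 bases past its 3′ end. The substitution and the unaligned bases lie outside it, so the counted part of Gm29216 itself holds no base that differs from mt-Co1. The 66 bases past Gm29216 were not compared with the mitochondrial chromosome. Carried over by the constant spacing, the transcript would span positions 6701 to 6938 of the mitochondrial chromosome, and 2 of the 49 mitochondrial Iso-seq transcripts in the annotation end at that same position 6938.

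Library totals lay between 11742417 and 36194255 counts (median 24403774). All told, 15450 reads were counted on the 4 pseudogenes, from 103 to 3544 in a library, and mitochondrially encoded genes took 0.787% to 13.6% of a library's counts. Labels were checked with 25 marker genes of tissue and sex, and 23 of them set their tissue or sex apart from all other libraries. The exceptions were Des, a muscle gene meant to mark the smooth muscle of colon, and Gdf9, an oocyte gene meant to mark ovary. Female heart replicate 1 stood apart, with more counts on the 4 pseudogenes than any other library (3544, against 918 to 1668 in the other 4 heart libraries). Heart values are given with and without it where it moves them most.

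Each of the 4 pseudogenes was highest in heart and lowest in testis. Levels are given in FPKM, computed here as counts per 1000000 counts of the library (CPM) and per kilobase of counted exon. The lowest tissue mean was in testis for all 4, and the ratio of heart to testis means was 23.9 for Gm28437, 8.81 for Gm10925, 18.2 for Gm28661 and 32.04 for Gm29216. Without female heart replicate 1 these ratios were 19.5, 7.97, 17.5 and 14.4. Tau, an index from 0 for an even level to 1 for a single tissue, was 0.882, 0.644, 0.830 and 0.892 in the same order, and 0.855, 0.607, 0.823 and 0.760 without that library.

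Gm28437, the copy of mt-Co3, took the most reads, 6398 in all and 41.4% of the four-member count. In heart it stood at 78.7, 26.4 and 24.4 FPKM in the female libraries and at 42.6 and 53.0 FPKM in the male libraries. The mean in heart was 45.0 ± 22.2 FPKM (SD, n = 5), and the lowest heart library was above the highest colon library (16.9 FPKM), the next tissue in order. Colon followed at 8.80 ± 4.15 FPKM (SD, n = 6; lowest 5.29, median 7.61), cerebellum at 6.52 ± 2.9999 FPKM (SD, n = 6; 4.08 to 12.4, median 5.81) and brain at 5.56 ± 2.28 FPKM (SD, n = 6; 3.13 to 9.26, median 5.26). Colon overlapped with cerebellum, cerebellum with brain, and brain with ovary. The ovary libraries were at 7.36, 1.90 and 1.96 FPKM and the testis libraries at 2.24, 1.53 and 1.87 FPKM, and their ranges overlapped as well.

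Gm10925, the copy of mt-Atp6, was the least uneven of the 4. Its heart libraries were at 20.7, 9.24 and 9.89 FPKM in females and 14.5 and 20.8 FPKM in males, with a mean of 15.0 ± 5.62 FPKM (SD, n = 5), or 13.6 ± 5.34 FPKM (SD, n = 4) without female heart replicate 1. Colon was close behind at 9.92 ± 3.64 FPKM (SD, n = 6), from 6.12 to 16.3 with a median of 9.24, and it overlapped with heart. Thus the ratio of the heart mean to that of the next tissue was 1.52 here, against 5.11 for Gm28437, and 1.37 against 4.16 without that library. Cerebellum (6.82 ± 3.54 FPKM, SD, n = 6; 3.12 to 13.5, median 6.06) and brain (5.97 ± 2.16 FPKM, SD, n = 6; 2.69 to 7.98, median 6.70) did not separate from colon or from each other. Ovary (4.33, 1.48 and 1.21 FPKM) and testis (1.35, 2.10 and 1.68 FPKM) came last with overlapping ranges.

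Gm28661, the copy of mt-Co2, differed from the others in the place of colon. Its heart libraries stood at 19.3, 13.8 and 10.2 FPKM in females and 17.5 and 22.1 FPKM in males (mean 16.6 ± 4.69, SD, n = 5), all above the highest library of cerebellum, the next tissue. Cerebellum was at 4.67 ± 1.87 FPKM (SD, n = 6; 2.50 to 8.08, median 4.35) and brain at 4.15 ± 1.59 FPKM (SD, n = 6; 2.27 to 6.38, median 4.47). Colon came after brain, at 3.36 ± 0.890 FPKM (SD, n = 6; 2.25 to 4.29, median 3.38), with a range that overlapped that of brain. All its colon libraries were above ovary (1.14, 1.24 and 0.732 FPKM), whereas ovary and testis (0.877, 0.855 and 1.00 FPKM) overlapped.

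Gm29216, the partial copy of mt-Co1, had the highest mean of the 4 per base in heart, and this mean was set by one library. Female heart replicate 1 was at 239 FPKM (1384 counts), against 29.8 and 22.9 FPKM in the other female hearts and 38.8 and 42.8 FPKM in the male hearts. With it the heart mean was 74.7 ± 92.2 FPKM (SD, n = 5), and without it 33.6 ± 8.94 FPKM (SD, n = 4), which is below the 36.6 ± 13.6 FPKM (SD, n = 4) of Gm28437 in the same 4 libraries. Heart and colon were barely apart, since the lowest heart library was at 22.92 FPKM and the highest colon library at 22.90 FPKM. Colon averaged 15.3 ± 5.46 FPKM (SD, n = 6; lowest 8.45, median 13.8), cerebellum 9.99 ± 4.15 FPKM (SD, n = 6; 5.23 to 17.2, median 10.1) and brain 8.48 ± 2.20 FPKM (SD, n = 6; 4.73 to 10.8, median 8.71). Those 3 tissues overlapped in order. Ovary was at 5.59, 3.71 and 3.44 FPKM, and every ovary library was above every testis library (2.36, 2.45 and 2.19 FPKM). In each tissue other than heart, Gm29216 also had the highest mean FPKM of the 4. Its FPKM rests on a shorter counted part, 238 bases against 678 to 783 for the others, which limits this comparison.

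**Figure D2:**
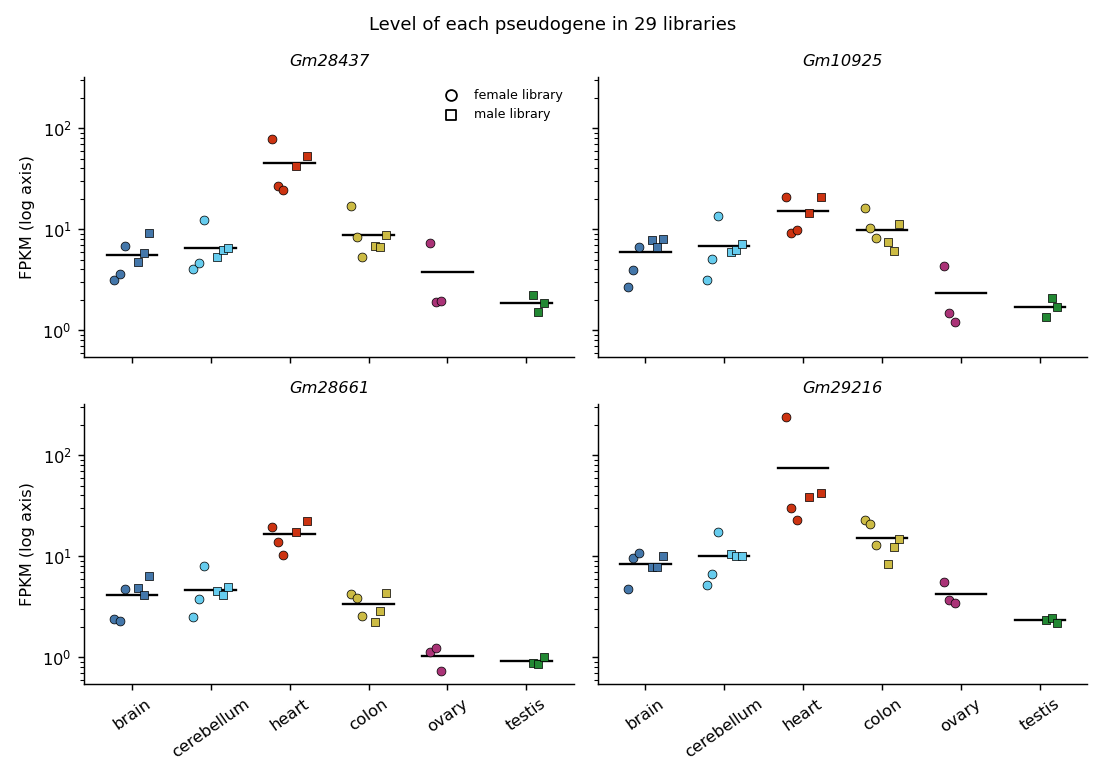
FPKM (log axis) of each pseudogene in the 29 libraries by tissue, with circles for female and squares for male libraries and a bar at the tissue mean. Heart has the highest mean in all 4 panels, and female heart replicate 1 lies far above the other heart libraries for Gm29216.

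The 3 other pseudogenes of the stretch lie just outside the choice made here, and they had fewer reads. Gm28439, identical to the first 876 bases of mt-Nd4, had 890 counts, Gm28438, a copy of mt-Nd3 with the substitution T3C, had 642, and Gm10222, a copy of mt-Nd4l, had 249. Those genes encode subunits of NADH dehydrogenase. By comparison, the fewest counts among the 4 were the 2516 of Gm28661. Heart was the tissue with the highest mean and testis the one with the lowest for these 3 as well, at 9.78 ± 4.08 and 0.540 ± 0.276 FPKM for Gm28438, 3.31 ± 1.12 and 0.274 ± 0.172 FPKM for Gm28439 and 2.18 ± 1.77 and 0.150 ± 0.0607 FPKM for Gm10222 (SD, n = 5 and 3). For Gm10222 the heart mean came from the male hearts (4.51 and 3.63 FPKM), and the female heart mean of 0.922 ± 0.331 FPKM (SD, n = 3) was below the means of cerebellum (1.68 ± 0.599) and brain (1.48 ± 0.460; SD, n = 6 each). The genes on either side were read as well. Tubb4b-ps2, a processed pseudogene 16112 bases below the stretch, had 27 counts in all, too few for an order of tissues. Lmbrd1, which encodes a lysosomal membrane protein of vitamin B12 transport and starts 62332 bases above the stretch, was lowest in heart (8.07 ± 2.22 FPKM, SD, n = 5) and highest in cerebellum (30.4 ± 3.34 FPKM, SD, n = 6).

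Over the 29 libraries, the four-member count moved with the mitochondrial share. In CPM it ranged 39.7-fold, from 3.67 to 145.7, while the mitochondrial share ranged 17.3-fold. Counted per 10000 mitochondrial counts, the 4 pseudogenes had 2.93 to 10.7, a 3.64-fold range with a median of 4.87. Without female heart replicate 1 the range in CPM was 22.1-fold, and that per 10000 mitochondrial counts was 2.08-fold with a highest value of 6.11. The heart libraries held 54.9% of the four-member count, 45.4% of the mitochondrial count and 16.7% of all counts. These shares were 41.5%, 38.04% and 13.6% without female heart replicate 1.

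The tissue means per 10000 mitochondrial counts lay closer together than the levels did. The mean was 4.0004 ± 1.13 in brain, 4.72 ± 1.06 in cerebellum and 5.14 ± 0.797 in colon (SD, n = 6 each). In ovary it was 4.96 ± 1.39 and in testis 4.51 ± 0.512 (SD, n = 3 each). Heart was at 6.34 ± 2.50 (SD, n = 5), with single libraries at 10.7, 4.47 and 5.16 in females and 5.32 and 6.09 in males. Without female heart replicate 1 the heart mean was 5.26 ± 0.664 (SD, n = 4), and the other heart libraries lay within the range of the other tissues (2.93 to 6.11). In the deposited counts, mt-Nd1 to mt-Nd4, with all 4 counterparts of the pseudogenes, are merged into one Iso-seq locus that took 71.6% of the mitochondrial count, and mt-Rnr1 and mt-Rnr2 had 0 counts. A pseudogene could therefore not be set against its own counterpart. The four-member count was also set against the mitochondrial protein-coding loci outside the part copied by the 4 (mt-Nd5 with mt-Cytb, and mt-Nd6). The mt-Nd6 locus is a minus-strand Iso-seq locus of 3828 bases, at positions 10312 to 14139, and it overlaps mt-Nd4 on the other strand. Per 10000 counts of these loci, the four-member count was 27.4 ± 10.01 in heart and 24.1 ± 4.88 in colon, and 11.8 ± 3.77 in brain, 14.2 ± 3.57 in cerebellum, 15.1 ± 3.87 in ovary and 14.3 ± 2.31 in testis (SD, n as above). Without female heart replicate 1 heart was at 23.3 ± 4.59 (SD, n = 4), below colon.

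Within brain, cerebellum and colon, which have 6 libraries each, the relation was followed on log2 values. Pearson's r was 0.76 in brain, 0.84 in cerebellum and 0.88 in colon, and Spearman's rho was 0.60, 0.49 and 0.83. Without the 2 libraries farthest from the median mitochondrial share, r was 0.56, 0.28 and 0.84 (4 libraries each), and it fell most in cerebellum. Leaving them out narrows the range of the share, which can lower r by itself, so no conclusion is drawn from the fall. Both measures share the total count of the library as their denominator. Heart, with 5 libraries, was left out of this.

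**Figure D3:**
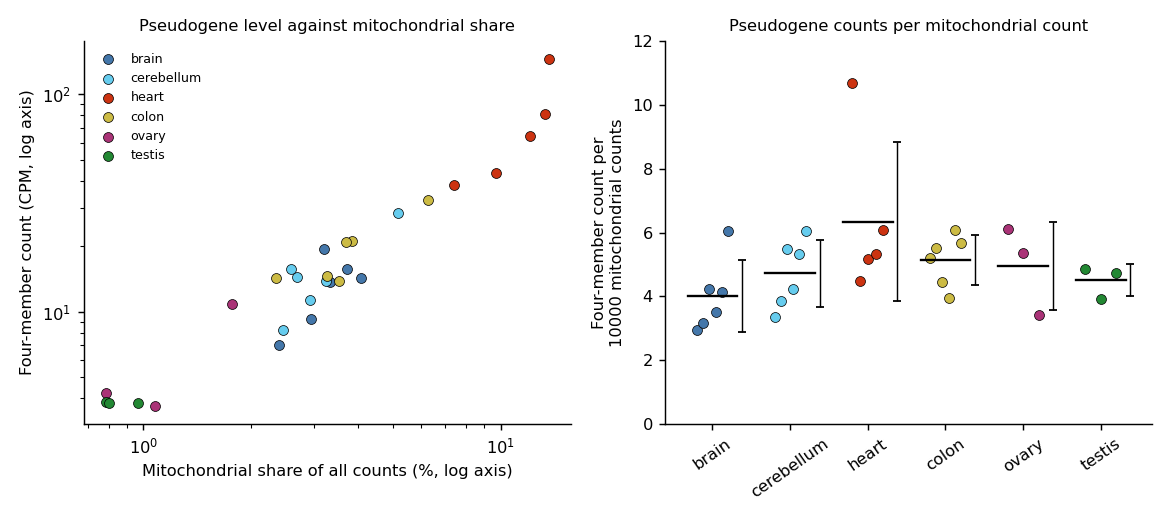
Left, four-member count (CPM, log axis) against the mitochondrial share of all counts (percent, log axis), one point per library and colored by tissue, with heart at the upper right and ovary and testis at the lower left. Right, the four-member count per 10000 mitochondrial counts by tissue, with a bar at the mean and whiskers of 1 SD, where female heart replicate 1 lies at 10.7 and the other libraries between 2.93 and 6.11.

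The split of the reads among the 4 pseudogenes varied between tissues. It is given as the percent of a library's four-member count that fell on each. It draws on the same counts by tissue that were in view when the 4 were chosen, so no test is given for it. The labels do not say which libraries came from separate animals, and errors and p-values here measure the spread between these libraries only.

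In heart, the copy of mt-Co3 took more of the reads on average and the copy of mt-Atp6 less. Gm28437 took 42.3%, 47.7% and 50% in the female hearts and 51.8% and 51.3% in the male hearts. The heart mean was 48.6% ± 3.89 (SD, n = 5), against a mean of 35.5% in the 24 other libraries (26.2% to 53.3%). The other tissues overlapped with heart here, since ovary replicate 1 reached 53.3%. Gm10925 took 9.65%, 14.4% and 17.5% in the female and 15.3% and 17.4% in the male hearts, a mean of 14.9% ± 3.22 (SD, n = 5). It took 30.4% on average elsewhere, from 22.3% to 38.3%, so no other library came as low as a heart library. Without female heart replicate 1, the differences between heart and the other libraries were 14.7 percentage points for Gm28437 and -14.3 for Gm10925.

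In colon, the copy of mt-Co2 took less. Gm28661 took 12.1% ± 1.90 of the four-member count there (SD, n = 6; 8.88% to 14.0%, median 12.3%), against 18.7% in the 23 other libraries (7.18% to 23.5%). Colon overlapped with the rest, since ovary replicate 3 (13.6%) and female heart replicate 1 (9.03%) fell inside its range and ovary replicate 1 (7.18%) below it. The share of Gm10925 in colon was 34.5% ± 3.24 (SD, n = 6) against 26.0% elsewhere. Gm28661 took 21.2% ± 2.55 in brain and 21.1% ± 1.44 in cerebellum (SD, n = 6 each), against 16.3% elsewhere in both cases.

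The mean share of Gm29216 lay between 14.6% in testis and 19.3% in heart, and the heart value came from one library. Female heart replicate 1 gave it 39.1% (95% Wilson interval 37.5% to 40.7%, counting error only), and the 4 other hearts gave 16.3%, 14.3%, 14.4% and 12.6%. Without that library its mean share in heart was below that of the other tissues, with a difference of -2.37 percentage points.

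**Figure D4:**
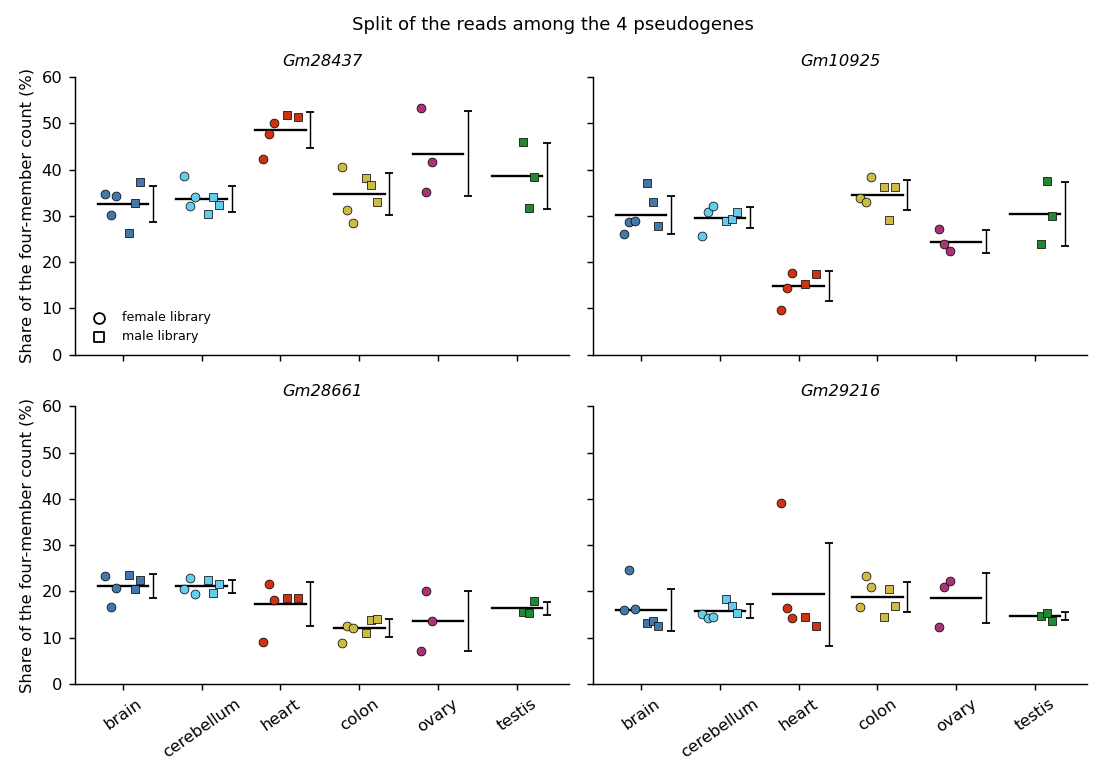
Percent of a library's four-member count on each pseudogene by tissue, with circles for female and squares for male libraries, a bar at the mean and whiskers of 1 SD. In heart the share of Gm28437 averages 48.6% and that of Gm10925 14.9%, and in colon that of Gm28661 averages 12.1%.

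No difference between the sexes was found for the 4 pseudogenes in brain, cerebellum, heart or colon. With edgeR's quasi-likelihood test, 0 of the 4 were called in brain (0.0368% of the 29911 genes tested were called), 0 in cerebellum (0.0301%), 0 in heart (0.0635%) and 0 in colon (0.324%). For the interaction of sex and tissue, 0 of the 4 were called as well (0.0167% of genes). At an unadjusted p under 0.05 the count in this fit was also 0 of 4 in every comparison, where 4.83%, 3.06%, 9.65% and 8.85% of all genes passed in the 4 tissues and 6.77% for the interaction, so a count of 0 among 4 is close to the background. DESeq2 called 0 of 4. Other settings did give unadjusted p-values under 0.05, in brain, heart and colon, and none of these passed the adjustment. The differences carried wide errors, and none of these tests shows that the sexes are alike.

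In brain, the log2 difference between males and females was 0.61 (standard error 0.55) for Gm28437, 0.81 (0.49) for Gm10925, 0.77 (0.41) for Gm28661 and 0.10 (0.65) for Gm29216. The values in cerebellum ran from -0.19 to 0.11, with standard errors of 0.40 to 0.65. In colon all 4 were below 0, from -0.81 (standard error 0.66) for Gm29216 to -0.34 (0.43) for Gm28661. Female colon replicate 1 had the highest mitochondrial share of the colon libraries, 6.26%, against 2.35% to 3.84% in the others.

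The widest gap was that of Gm29216 in heart, which came to -1.36 on the log2 scale (adjusted p = 0.555 with edgeR, standard error 0.71). It changed sign to 0.93 without female heart replicate 1. The other 3 were at 0.14 (0.57), 0.46 (0.53) and 0.52 (0.43) for Gm28437, Gm10925 and Gm28661, and at 1.23, 1.24 and 1.02 without that library, which had the highest mitochondrial share of all (adjusted p from 0.282 to 0.295 with edgeR). Adjusted p for the interaction ranged from 0.858 for Gm10925 to 0.957 for Gm28437 (edgeR's quasi-likelihood F test).

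**Figure D5:**
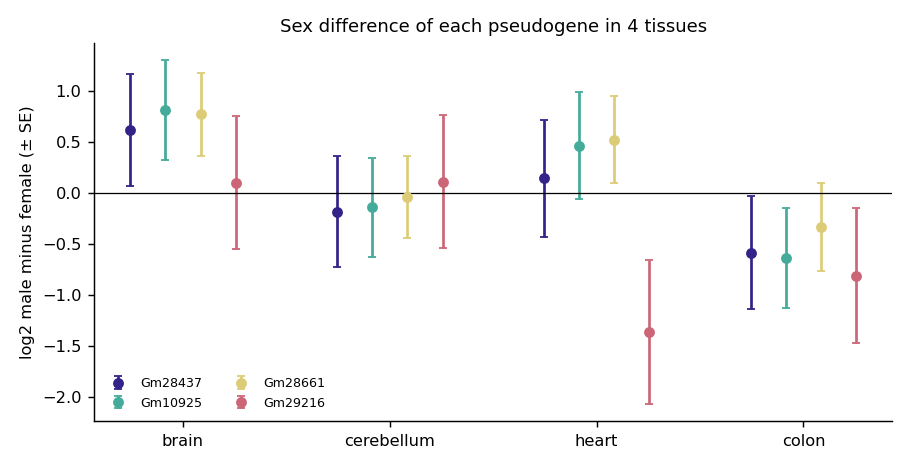
Log2 difference between males and females (male minus female, whiskers of 1 standard error from edgeR's fit) for each pseudogene in brain, cerebellum, heart and colon. Only Gm29216 in heart, at -1.36, lies beyond 1 in either direction, and it changes sign without female heart replicate 1.

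In the fit over all genes, the log2 difference between heart and the mean of the other tissues was 3.94 (standard error 0.28) for Gm28437, 2.44 (0.26) for Gm10925, 3.50 (0.21) for Gm28661 and 3.94 (0.34) for Gm29216. The loci encoded in the mitochondrion differed by 3.23 for mt-Nd1 to mt-Nd4, 2.72 for mt-Nd5 with mt-Cytb and 2.48 for mt-Nd6. Without female heart replicate 1, the pseudogenes were at 3.39, 2.05, 3.25 and 2.79, and with library totals in place of TMM normalization at 3.29, 1.83, 2.90 and 3.25. The values of the fit with TMM and all libraries stood above its median over all genes tested, -0.55. No median was taken for the other settings. No test is given for the pseudogenes because these levels chose them.

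A list of 38 nuclear genes, chosen with earlier results of these data known, was read in the same comparison. Most of them copy or transcribe the mitochondrial genome or process its RNA. Ppargc1a, Ppargc1b, Nrf1, Gabpa and Esrra are instead regulators of nuclear genes. In heart, 29 of the 38 were higher (22.1% of all genes tested were called higher), 1 was lower (29.6% of all genes) and 8 were not called, with a median log2 difference of 0.99. The largest differences upward were those of Ppargc1a, a coactivator of mitochondrial biogenesis, at 2.68 (standard error 0.13, adjusted p = 1.73e-15 with edgeR), and Hsd17b10, a subunit of mitochondrial RNase P, at 2.53 (standard error 0.13, adjusted p = 3.99e-15 with edgeR). The gene called lower was Nrf1, a transcription factor of respiratory genes, at -0.29 (standard error 0.10, adjusted p = 0.0167 with edgeR). Among the core machinery, Polrmt, the mitochondrial RNA polymerase, was higher by 1.02, Tfb2m, its initiation factor, by 1.91, and Tefm, its elongation factor, by 2.34, while Tfam, which packages mitochondrial DNA, was at 0.19 and was not called. Lrpprc, which stabilizes mitochondrial mRNAs, was higher by 2.001. These genes were named from the list after their values were seen, beyond the pairs with the largest changes. Heart libraries also carried more blood RNA, with a summed level of Hba-a1, Hbb-bs and Alas2 of 4172 to 14536 CPM, against 16.7 to 2162 CPM elsewhere. The part of blood RNA in the differences was not tested.

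The genes most like the 4 pseudogenes across the 10 groups were sought outside the mitochondrial chromosome by Pearson's r of log2 CPM over the group means, among 29896 genes. They were Gm15972 on chromosome 18 (r = 0.983), whose group means of 0.0649 to 0.989 CPM lie near the pseudocount of 0.5 CPM, Gm13340 on chromosome 2 (0.976), Atp5f1 (0.976), Phyh (0.972) and the locus of Cox4i1 and Gm20388 (0.968). Atp5f1 encodes a nuclear subunit of ATP synthase, Phyh a peroxisomal enzyme of fatty acid breakdown and Cox4i1 a nuclear subunit of cytochrome c oxidase. The merged locus of mt-Nd1 to mt-Nd4 had an r of 0.990. All 10 points of such a correlation come from the same libraries, so it is a description.

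Gm13340 is itself a mitochondrial-like pseudogene. With Gm13339 and Gm13341 it forms a second such place on chromosome 2 (chr2:22587291-22590533), and at least 1 window of 100 bases of each occurs exactly in a mitochondrial gene (80, 30 and 88 windows). Gm13341 had 3119 counts, Gm13340 had 1751 and Gm13339 had 20. Heart had the highest mean for the first and second of these, at 22.5 ± 8.36 FPKM for Gm13341 and 5.28 ± 1.56 FPKM for Gm13340 (SD, n = 5). The 20 counts of Gm13339 are too few for an order of tissues, since 7 of them came from female heart replicate 3. Together the 3 had 2.06 ± 0.393 counts per 10000 mitochondrial counts in heart (SD, n = 5), against 6.34 ± 2.50 for the 4 on chromosome 1. Without female heart replicate 1 the latter was 5.26 ± 0.664 (SD, n = 4). These sums cover different numbers of genes and of counted bases.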

How the data were processed

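For 29 RNA-seq libraries, the authors deposited raw counts of reads per gene or Iso-seq locus, without normalization. Submitters' processing notes name HISAT2 2.0.5 and featureCounts 1.6.3 on mm10, whereas the paper's methods name STAR, in their text on human data. Reads that mapped to several places were dropped, by the paper's methods. Whether the counting used the strand is not given in the sources used here. The authors deposited an annotation that merges Iso-seq transcripts with ENSEMBL genes. All 29 count columns were used.

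The members and gene lists were chosen with earlier results of these data known. Genes were named by rule: the 4 pseudogenes, their mitochondrial counterparts and neighbours, the 5 genes with the most similar pattern, and list genes by count with the pairs of largest change in each direction. Groups follow the labels, and 0 of the within-group library pairs were identical. CPM and FPKM were computed from the counts and library totals. One edgeR 4.0.16 quasi-likelihood fit (R 4.3.3, TMM, filter on low counts by group, 29911 genes, Benjamini-Hochberg, called under 0.05) covered all libraries with a mean for each of 10 groups, and DESeq2 1.42.0 was an alternative. Likeness used a pseudocount of 0.5 CPM on the log2 scale. Tests of shares by exact permutation over libraries (scipy 1.17.1) had been planned, but they draw on the tissue counts that chose the members, so shares are described without a test. Sequences from GENCODE M21 were aligned with Biopython 1.88. The scripts were tested on simulated data. Replicate numbers did not pair the libraries (correlation of deviations from -0.17 to 0.15 between the sexes of a tissue, and from -0.26 to 0.093 over 56 pairs of tissues within a sex).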

Additional observations from a re-analysis of the deposited data

Results flagged for a closer look

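Within tissues of 5 or 6 libraries, 40 sets of values were checked for a library that lies apart from the rest by Dixon's criterion, and 8 did. Chance alone sets about 1 in 20 such sets apart, but sets that share the same reads are not independent. Of the 8, 4 were of female heart replicate 1. There Gm29216 stood at 239 FPKM (22.9 to 42.8 in the other hearts) and took 39.1% of the four-member count (12.6% to 16.3%), Gm28661 took 9.03% (18.2% to 21.6%), and the four-member count per 10000 mitochondrial counts was 10.7 (4.47 to 6.09). Only its count of Gm29216 was so far out, at 5.59 times the highest other heart library in FPKM, whereas that ratio was 1.48 for Gm28437, 0.997 for Gm10925 and 0.873 for Gm28661. The shares of a library have a fixed sum, so a high share of Gm29216 goes with lower shares of the others. Per 10000 mitochondrial counts, Gm28661 was at 0.965 in that library, against 0.938 to 1.13 in the other hearts. The cause of the high count of Gm29216 was not tested.

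Female cerebellum replicate 3 had a mitochondrial share of 5.17% (2.46% to 3.25% in the others) and Gm28437 at 12.4 FPKM (4.08 to 6.46). Gm28437 stood at 16.9 FPKM in female colon replicate 1 (5.29 to 8.81 in the others), the colon library with the highest mitochondrial share. In female brain replicate 2, Gm29216 took 24.5% of the four-member count (95% Wilson interval 19.7% to 30.05%), against 12.4% to 16.3%.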

How the results depend on the processing

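In no alternative was a sex difference or an interaction called for any of the 4 pseudogenes. Unadjusted p-values, from edgeR's quasi-likelihood test unless named, fell under 0.05 in brain for Gm10925 (0.0248) and Gm28661 (0.0454) with the 2 groups alone and (0.0354 and 0.0129) without female replicate 3. In heart they did so for Gm28437, Gm10925 and Gm28661 without female replicate 1 (0.0305, 0.0273 and 0.0312) and for Gm29216 without female replicates 2 and 3 (0.0144 and 0.00377), with no filter on low counts (0.0386) and with DESeq2 (0.0471), and in colon for Gm29216 with the 2 groups alone (0.0418). Signs of these uncalled differences did change. In the fit with a replicate block, the log2 difference of Gm28661 in cerebellum was 0.0015. Leaving out 1 library at a time gave -0.19 to 0.33 for Gm29216 in brain. In cerebellum it gave -0.44 to 0.46 for Gm28437, -0.49 to 0.63 for Gm10925, -0.33 to 0.53 for Gm28661 and -0.17 to 0.77 for Gm29216. In heart it gave -0.27 to 1.23 for Gm28437 and -1.89 to 0.93 for Gm29216. The replicate block called 10, 8, 16 and 82 genes for sex in brain, cerebellum, heart and colon (11, 9, 19 and 97 without it) and 1 for the interaction (5 without it), and 15132 for heart against the other tissues. Counts of genes called for sex over all genes were less stable. DESeq2 called 52, 24, 284 and 405 in the 4 tissues and 116 for the interaction. The fit of the 2 groups alone called 5 in heart and 38 in colon, the fit with no filter on low counts 30 in heart and 12 for the interaction, and DESeq2's size factors in edgeR 3 for the interaction. Leaving out 1 library gave 7 to 285 in heart, with 246 and 285 without female replicates 1 and 2 and 7 and 9 without male replicates 1 and 2. In colon it gave 43 to 133, with 43 and 58 without male replicates 1 and 2.

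The planned tests of shares by tissue are not reported, since they use the counts that chose the pseudogenes. With one sex, 4 differences in share changed sign, for Gm29216 in ovary (-0.735 percentage points, females), cerebellum (2.10, males) and heart (-1.95, males) and for Gm28661 in heart (0.437, males). Leaving out 1 library gave -1.21 to 1.93 for Gm28661 in heart, -2.37 to 4.25 for Gm29216 in heart, -0.416 to 4.60 for Gm29216 in ovary, -2.60 to 4.53 for Gm28437 in testis and -0.566 to 6.31 for Gm10925 in testis. The four-member count per mitochondrial count differed 1.59-fold between the highest and lowest tissue mean, 2.32-fold against loci outside the part copied by the 4 pseudogenes, and 1.31-fold to 1.77-fold with 1 library left out. With TMM effective library sizes, mean FPKM moved beyond 1 SD in heart for Gm10925 (21.5) and Gm28661 (23.6) and in testis for Gm28661 (1.06) and Gm29216 (2.70). With library totals alone, the log2 difference between heart and the other tissues was 3.29 for Gm28437, 1.83 for Gm10925, 2.90 for Gm28661 and 3.25 for Gm29216, each lower than with TMM. The causes were not tested. Counts as low as 14 in ovary limit what single libraries can show.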
